A study of Mus musculus with 6 samples.

Results

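The genes of oxidative phosphorylation were followed in the hippocampus of aged Tg2576 mice, with and without captopril, by their probe sets on an expression array. Members were all probe sets with a single gene symbol that starts with Nduf, Uqcr, Atp5 or Cox4 to Cox8, or that is Sdha, Sdhb, Sdhc, Sdhd, Cyc1 or Cycs. The rule used symbols and a minimum signal of 100 in the mean of at least 1 group, and no difference between groups. It gave 158 probe sets of 88 genes, out of 23262 probe sets tested and 45101 on the chip. By symbol alone there were 184 probe sets of 92 genes, and the other 26 probe sets stayed below a mean of 100 in every group. The symbols take in 10 probe sets of 8 assembly factors (Ndufaf1 to Ndufaf8, proteins that help to build complex I and do not stay in it), which are counted apart from the subunits. Complexes were also assigned by symbol alone. Complex I below therefore includes Ndufa4 and Ndufa4l2, whichever complex their proteins belong to.

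Male mice of 3 groups were compared, named Tg-18mo-ACEI, Tg-18mo and Tg-12mo. All carried the Tg2576 transgene, human APP695 with the Swedish mutation under the prion protein promoter, on the C57BL/6 strain, so no mouse without the transgene was measured. Tg-18mo-ACEI mice were 18 months old and had received captopril, which blocks the angiotensin-converting enzyme, with their drinking water at 20 mg/kg/day for the last 6 months. Tg-18mo mice were of the same age and untreated (high plaque load), and untreated Tg-12mo mice were 12 months old (low plaque load) and stand for the time at which treatment began. Each group had 2 chips, and each chip carried hippocampal RNA pooled from 4 mice. The pools are described as biological replicates and their membership is not given further, so the tests below measure the spread between chips, and the number of chips limits their precision. Of the markers looked at for the tissue, 10 of 10 for neurons and 8 of 8 for hippocampal principal neurons passed the signal minimum.

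Oxidative phosphorylation is carried out in the inner mitochondrial membrane. Complex I oxidises NADH and complex II oxidises succinate, complex III passes the electrons to cytochrome c, complex IV passes them to oxygen, and complex V, the ATP synthase, uses the proton gradient that results. Nearly all subunits are encoded in the nucleus, and several subunits of complex IV exist as a widely expressed form and a second form restricted to muscle, brown fat, testis or hypoxic tissue. In the brain most of the ATP made in this way serves neurons, where it restores ion gradients after signalling.

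Sequence upstream of a gene start was taken from RefSeq (GRCm38.p6) for 72 of the 88 genes. It is shown for 2 widely expressed complex IV subunits, Cox6b1 and Cox8a, beside their tissue-restricted forms Cox6b2 and Cox8b, which had the largest differences with captopril, and for Ndufaf4 and Ndufb6, which had the largest rise with captopril among the assembly factors and the largest fall with age among complex I probe sets of 5000 or more. Each is the 250 bases before the start, and capitals mark matches on either strand to GCATGCGC, a core of the NRF1 site, or to CCGGAA, a core of the ETS sites that GABPA binds.
Ndufaf4, chr4:24897833-24898082, plus strand: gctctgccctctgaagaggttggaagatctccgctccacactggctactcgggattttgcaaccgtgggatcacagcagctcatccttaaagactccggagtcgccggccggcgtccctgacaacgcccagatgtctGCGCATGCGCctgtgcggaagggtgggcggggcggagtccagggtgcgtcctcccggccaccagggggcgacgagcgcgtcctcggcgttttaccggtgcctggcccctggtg
Ndufb6, chr4:40279422-40279671, minus strand: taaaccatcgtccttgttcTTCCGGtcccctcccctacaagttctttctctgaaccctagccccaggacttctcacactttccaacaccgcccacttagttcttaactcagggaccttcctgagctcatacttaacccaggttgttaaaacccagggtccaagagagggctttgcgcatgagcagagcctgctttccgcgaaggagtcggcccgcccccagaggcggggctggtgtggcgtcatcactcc
Cox6b1, chr7:30626115-30626364, minus strand: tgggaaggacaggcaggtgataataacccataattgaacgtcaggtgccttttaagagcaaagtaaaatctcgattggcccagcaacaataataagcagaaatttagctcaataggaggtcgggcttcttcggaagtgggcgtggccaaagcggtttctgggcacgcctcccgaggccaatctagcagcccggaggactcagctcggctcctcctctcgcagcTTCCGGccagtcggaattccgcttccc
Cox6b2, chr7:4753095-4753344, minus strand: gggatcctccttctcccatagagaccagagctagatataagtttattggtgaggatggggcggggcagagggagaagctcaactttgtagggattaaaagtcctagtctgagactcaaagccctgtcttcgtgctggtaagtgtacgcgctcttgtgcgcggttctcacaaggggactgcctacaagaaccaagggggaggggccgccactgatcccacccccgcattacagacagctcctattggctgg
Cox8a, chr19:7217617-7217866, minus strand: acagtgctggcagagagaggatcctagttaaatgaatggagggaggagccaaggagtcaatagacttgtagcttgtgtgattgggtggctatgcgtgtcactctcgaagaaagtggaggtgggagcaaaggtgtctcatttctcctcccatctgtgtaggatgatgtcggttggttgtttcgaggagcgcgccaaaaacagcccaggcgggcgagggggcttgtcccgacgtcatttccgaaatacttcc
Cox8b, chr7:140900447-140900696, minus strand: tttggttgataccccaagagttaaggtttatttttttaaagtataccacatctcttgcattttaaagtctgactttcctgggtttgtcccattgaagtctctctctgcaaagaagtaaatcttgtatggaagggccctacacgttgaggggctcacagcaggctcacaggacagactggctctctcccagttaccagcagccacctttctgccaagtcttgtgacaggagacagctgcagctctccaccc

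In the Ndufaf4 sequence the match to GCATGCGC overlaps its own reverse complement in a single run. Over the 72 member genes, 9 (12.5%) held GCATGCGC in either direction and 22 (30.6%) held CCGGAA, against 2.56% and 13.6% of the 27025 genes with such a sequence. No match was found to either motif in the windows of Cox8a, Cox8b and Cox6b2, which says only that these letters are not there. A match is a description of the sequence, and binding was not measured.

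The signals are linear values that were scaled on each chip to the same trimmed mean. Even so, the bright end of the distribution differed between the chips. The 99th percentile of signal ranged from 10401 to 11291 over the 4 chips of mice aged 18 months. In Tg-12mo it was 14069 on one chip, with 14297 on the other. For this reason every comparison of the members, most of which are bright, is given on the deposited scale and again after quantile normalization, which makes the distributions of all chips equal. Chips also differed in measures of RNA: the 3′ to 5′ signal ratio of β-actin was 1.45 and 1.39 in Tg-18mo-ACEI, 1.98 and 1.88 in Tg-18mo, and 1.83 and 1.77 in Tg-12mo. An 18S ribosomal RNA control was at 2214 and 2000.0 in Tg-18mo-ACEI, at 10219 and 11144 in Tg-18mo, and at 2125 and 2121 in Tg-12mo. These measures move with the groups, and their part in the results was not tested. In pooled tissue, fewer cells of a type and less RNA per cell cannot be told apart.

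Across the 158 members the median signal was 7121 and 6993 in Tg-18mo-ACEI, 7463 and 7835 in Tg-18mo, and 9159 and 9367 in Tg-12mo. The groups did not overlap, and the Tg-12mo chips stood well above the other 4. The members made up 3.13% and 3.01% of all signal in Tg-18mo-ACEI, 3.19% and 3.30% in Tg-18mo, and 3.86% and 3.92% in Tg-12mo. After quantile normalization the medians were 7489 and 7445 in Tg-18mo-ACEI, 7908 and 8031 in Tg-18mo, and 8285 and 8359 in Tg-12mo. The order of the groups was the same, with smaller steps between them.

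The effect of captopril was read from Tg-18mo-ACEI against Tg-18mo, mice of the same age. With captopril 8 member probe sets rose and 47 fell, by limma at an adjusted p under 0.05 over all probe sets tested. Among all 23262 probe sets, 15.9% rose and 17.7% fell, so the share of members that rose (5.06%) was below the background and the share that fell (29.7%) above it. On the quantile scale 9 members rose and 50 fell, against backgrounds of 16.3% and 18.2%. The falls were small: the median log2 difference over all members was -0.11, beside -0.04 for all probe sets tested. On the quantile scale these medians were -0.07 and -0.04.

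Of the 158 probe sets, 46 (of 36 genes) fell on both scales and 8 rose on both. The share of all probe sets tested that moved the same way on both scales was not counted. These counts thus have no background beside them. The median fold of the 46 members was 0.865 and only Cox8b and Cox6b2 were below 0.5. The count of lower calls depended on single chips: it was 15 without replicate 2 of Tg-18mo, 18 without replicate 2 of Tg-18mo-ACEI and 29 without replicate 1 of Tg-18mo. It was 24 when each chip was divided by its median and 14 when the variance prior took no account of signal. Leaving out a chip leaves 1 chip in its group, and the calls over all probe sets under these settings are not given. A loss of calls over the whole array and one particular to the members thus cannot be told apart. The higher calls numbered 3, 4 and 5 without replicate 1 of Tg-18mo, replicate 2 of Tg-18mo and replicate 2 of Tg-18mo-ACEI.

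**Figure D1:**
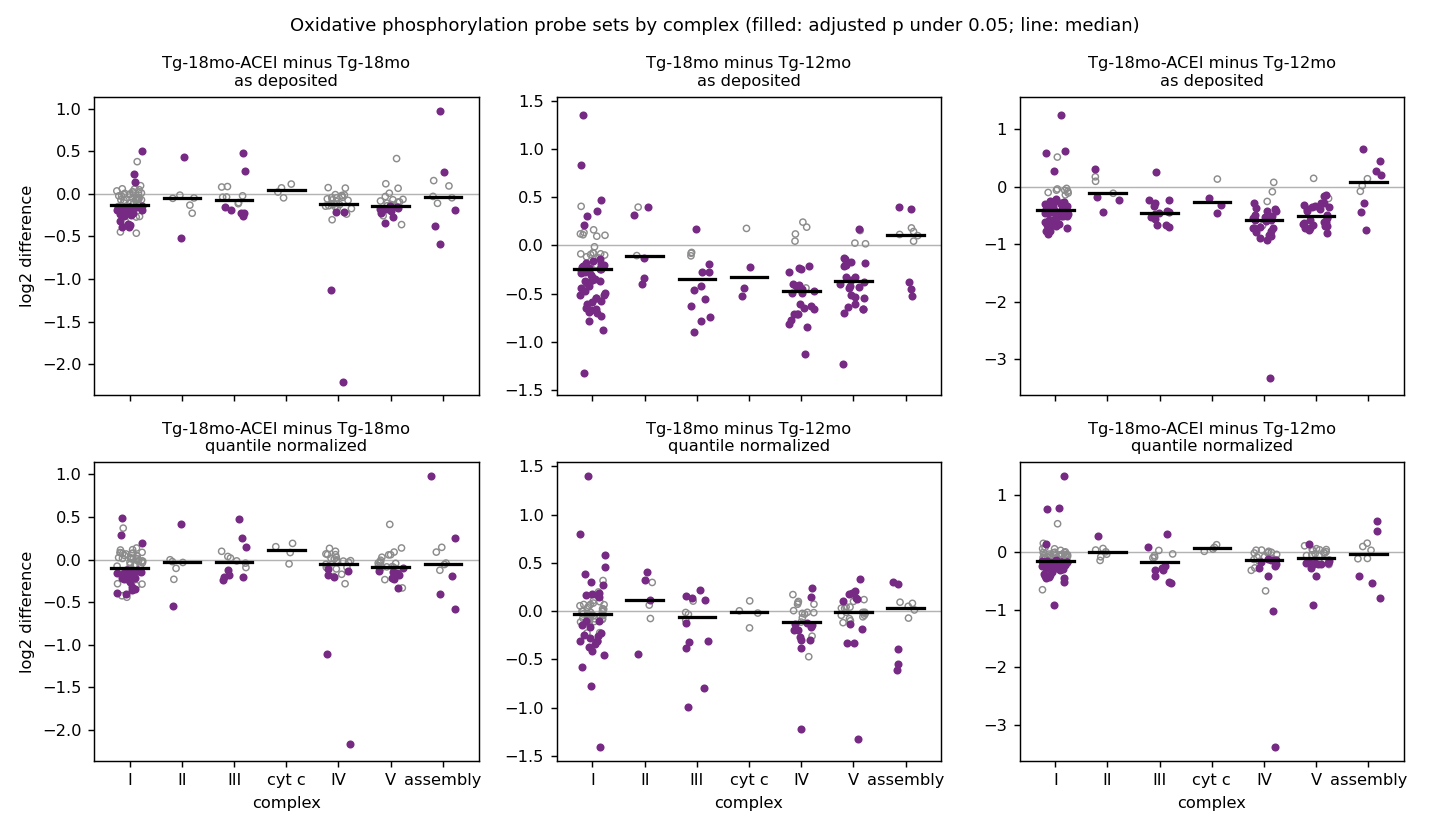
Log2 differences of the 158 member probe sets by complex (x axis) for the 3 comparisons (columns), as deposited (upper row) and after quantile normalization (lower row), filled where the adjusted p was under 0.05, with the median as a line. In the comparisons with Tg-12mo the medians of complexes I, III, IV and V lie below 0 as deposited and closer to 0 after quantile normalization, while Cox8b stands lowest in complex IV in all 6 panels.

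Lower calls with captopril were made at 24 of 68 probe sets of complex I and 10 of 28 of complex V. Complex III had 5 of 14, complex IV 4 of 27, complex II 1 of 7, the assembly factors 3 of 10, and cytochrome c 0 of 4 (no member of cytochrome c was called in either direction). Beside these, 29.7% of all members and 17.7% of all probe sets tested were lower. The parts differ in their number of probe sets, and their shares were not tested against each other. Within complex I, 12 of 33 probe sets of the matrix arm, which holds the NADH site and the iron-sulphur clusters, and 11 of 31 of the membrane arm, which pumps protons, were lower. The rest of the 68 were placed in neither arm. The symbols of the rule take in no subunit encoded in mitochondrial DNA, so the membrane arm is counted in part only. Ndufs7, the subunit next to the quinone site, had 5708 and 5289 in Tg-18mo-ACEI, against 6115 and 6595 in Tg-18mo, at the probe set 1451312_at (log2 difference -0.21, adjusted p = 0.027, limma), a call lost without replicate 2 of either group (-0.15 in both cases). Its other probe set, 1424313_a_at, differed by -0.05. Ndufs8, a further iron-sulphur subunit, fell by 0.20 on the log2 scale at 1423908_at, a call lost without replicate 1 of Tg-18mo or replicate 2 of Tg-18mo-ACEI (-0.18 in both cases), and was not called at its 5 other probe sets.

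Members with a mean signal of 5000 to 10000 held most of the captopril calls. In this band 51.8% of 56 members were lower, against 25.7% of all 1076 probe sets of the band, and on the quantile scale 57.1% against 26.1%. Among the brightest, at 10000 or more, 13.8% of 58 members were lower, beside 13.7% of 633 probe sets, and on the quantile scale 13.8% beside 12.5%. From 1000 to 5000, 38.9% of only 18 members were lower, beside 25.9% of 6668 probe sets, and below 1000 it was 11.5% of 26 members, beside 13.7% of 14885. In lower calls the members thus stood near the background at the top and at the bottom of the signal range. Higher calls at 10000 or more were made for 0% of members, beside 2.69% of all probe sets, and on the quantile scale 1.72% beside 11.8%. From 5000 to 10000 they were 3.57% beside 16.4%, and below 1000 they were 11.5% beside 13.3%.

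**Figure D2:**
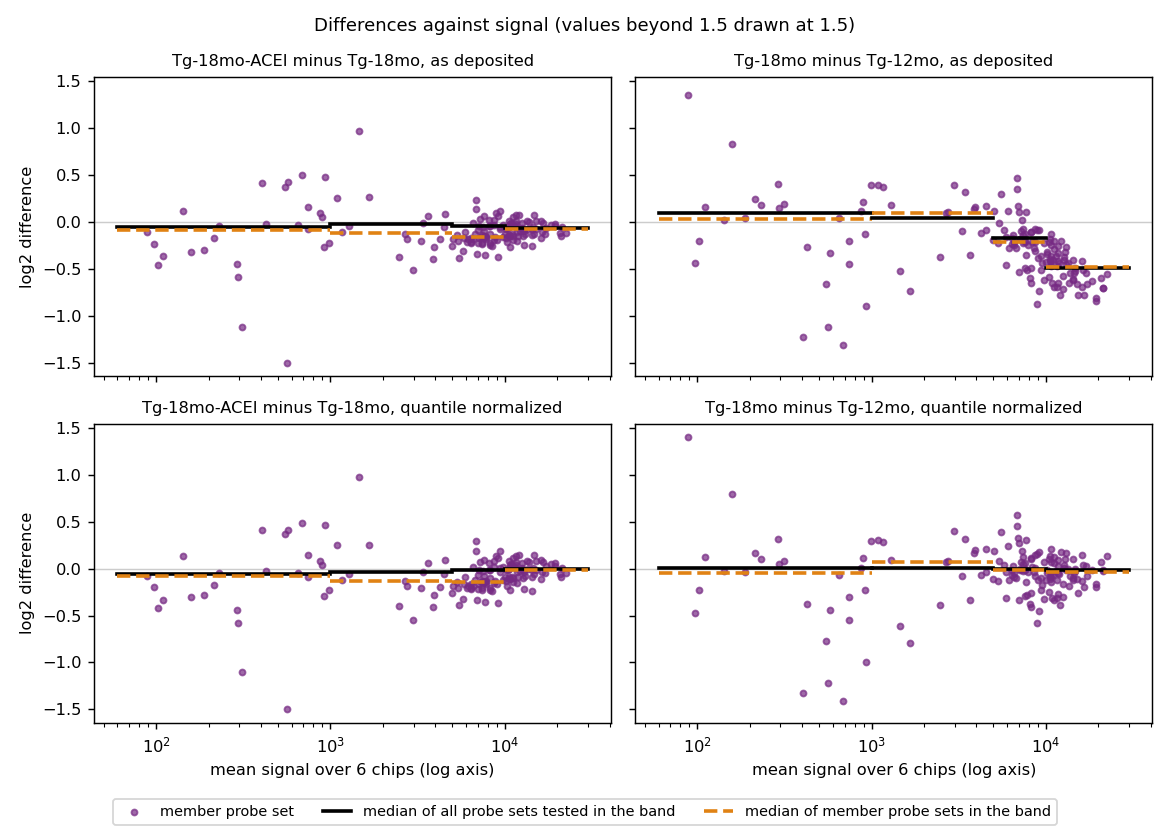
Log2 difference of each member probe set against its mean signal over the 6 chips (log axis) for Tg-18mo-ACEI minus Tg-18mo (left) and Tg-18mo minus Tg-12mo (right), as deposited and after quantile normalization, with the median of all probe sets in 4 bands of signal as solid lines and that of the members as broken lines. With age the deposited medians of members and of all probe sets both fall from the band of 1000 to 5000 upwards, to -0.49 and -0.49 at 10000 or more, while below 1000 that of the members is the lower one, and both lie near 0 after quantile normalization. Cox8b, at -2.20 with captopril, is drawn at the lower edge.

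The largest difference with captopril was that of Cox8b, the form of subunit 8 of complex IV used in heart, skeletal muscle and brown fat. Its signal at 1449218_at was 112 and 105 in Tg-18mo-ACEI, 541 and 458 in Tg-18mo, and 1077 and 1097 in Tg-12mo. The groups did not overlap, with the treated mice lowest and the young mice highest. Cox8b fell by 2.20 ± 0.11 (SE) on the log2 scale with captopril (adjusted p = 5.5e-06, limma) and by 1.13 in Tg-18mo against Tg-12mo (adjusted p = 0.00011). Tg-18mo-ACEI differed from Tg-12mo by -3.33, a fold of 0.0997. All 3 calls held on the quantile scale and without any single chip, and Cox8b was the only member to pass the methods' t-test at their threshold of a 2-fold change, in both comparisons with Tg-12mo. The probe sets of its widely expressed form had smaller differences. Cox8a had 9840 and 8808 in Tg-18mo-ACEI, 9821 and 10876 in Tg-18mo, and 11838 and 12687 in Tg-12mo at 1416112_at, which was not called with captopril (log2 difference -0.15, adjusted p = 0.14). The second Cox8a probe set, 1448222_x_at, fell by 0.21 on the log2 scale (adjusted p = 0.041), a call lost without replicate 2 of Tg-18mo-ACEI (-0.14) and without either Tg-18mo chip (-0.26 and -0.17).

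Cox6b2, a form of subunit 6b known from testis, was the other member with a fold below 0.5. It had 180.2 and 187 in Tg-18mo-ACEI, 362 and 445 in Tg-18mo, and 334 and 370.0 in Tg-12mo at 1435275_at. The treated chips were the low ones, and both untreated ages overlapped. The log2 difference was -1.13 ± 0.14 (SE) with captopril (adjusted p = 0.00056, limma), 0.19 in Tg-18mo against Tg-12mo (adjusted p = 0.29), and -0.94 in Tg-18mo-ACEI against Tg-12mo (adjusted p = 0.001). Its widely expressed form Cox6b1 differed by -0.12 at 1436757_a_at and by -0.13 at 1416565_at with captopril, and neither was called.

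Markers of the choroid plexus, a tissue that borders the hippocampus in dissection, moved beside these 2 genes. Of 9 such markers tested, 8 fell with captopril and none rose as deposited, with a median log2 difference of -2.50. Among all probe sets tested, 17.7% fell and 15.9% rose. The exception was Ttr, a carrier of thyroid hormone and the most abundant of the 9 markers (0.05). On the quantile scale Ttr was called higher (0.12). The summed signal of the 9 was 20160 to 22119 in Tg-18mo-ACEI, 26284 to 28774 in Tg-18mo and 44006 to 44234 in Tg-12mo. Without Ttr the sum was 1761 and 1790.0 in Tg-18mo-ACEI, 8736 and 8968 in Tg-18mo, and 7636 and 7850.0 in Tg-12mo. With age, 4 of the 9 rose (2 on the quantile scale) and 1 fell, where Cox8b fell and Cox6b2 was not called. Among all probe sets tested, 25.9% rose and 21.5% fell with age as deposited. Of 12 markers of heart and skeletal muscle, 5 were tested and 1, Myh7, fell with captopril, while Myh6, Tnni3, Actc1, Myl2, Myl7, Ckm and Mb were below a mean of 100 in every group. The summed signal of the 5 was 1333 to 1429 in Tg-18mo-ACEI, 1844 to 1902 in Tg-18mo and 1554 on both Tg-12mo chips. Of the markers of brown adipocytes, Ucp1, Adipoq and Fabp4 were below 100, and of the 2 tested 1 rose and 1 fell with captopril (summed signal 646 to 694 in Tg-18mo-ACEI, 802 to 837 in Tg-18mo and 619 to 623 in Tg-12mo). The part of these tissues in the Cox8b and Cox6b2 results was not tested.

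**Figure D3:**
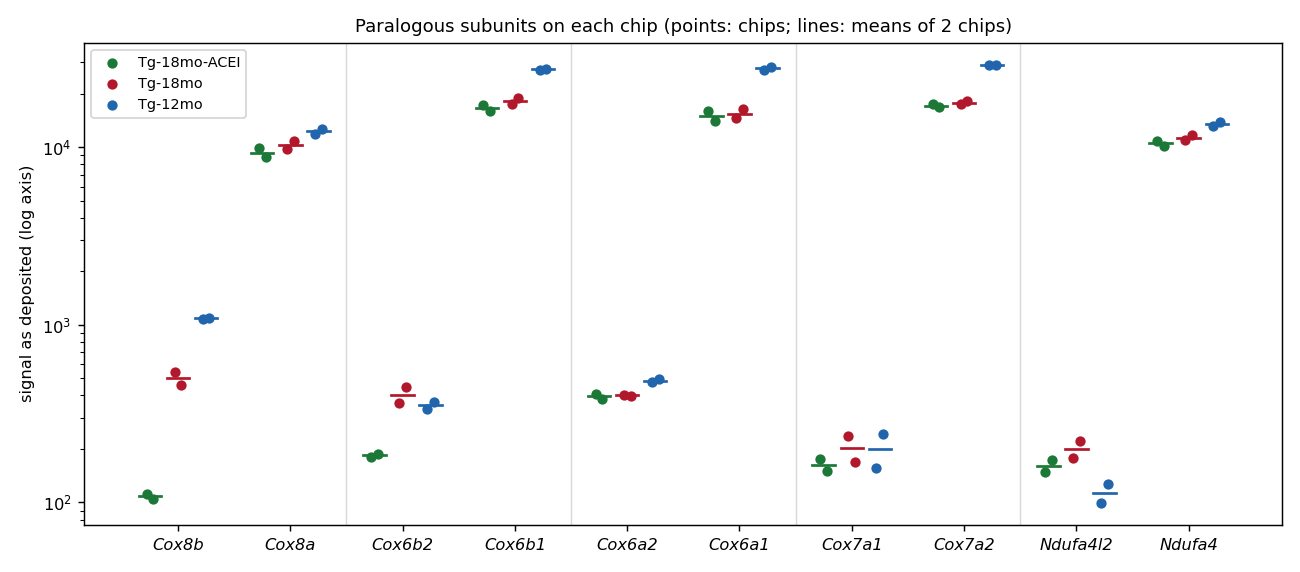
Deposited signal (log axis) on each chip of 5 pairs of related subunits, with the tissue-restricted form left of the widely expressed form and Tg-18mo-ACEI left, Tg-18mo in the middle and Tg-12mo right within each gene, lines marking the mean of 2 chips. Cox8b separates all 3 groups, Cox6b2 separates the treated chips from the 4 untreated ones, and Cox6a2 and Cox7a1 do not separate Tg-18mo-ACEI from Tg-18mo.

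The other tissue-restricted forms were near the signal minimum or did not move with captopril. Cox6a2, the muscle form of subunit 6a, had 406 and 385 in Tg-18mo-ACEI, against 404 and 396 in Tg-18mo, at 1417607_at (log2 difference -0.02). It was called lower in Tg-18mo than in Tg-12mo (-0.27, and -0.38 on the quantile scale). In Tg-18mo-ACEI against Tg-12mo it was also called lower (-0.29 and -0.41). Both deposited calls were lost when any single one of the 6 chips was left out. Cox7a1, the muscle form of subunit 7a, had 175 and 151 in Tg-18mo-ACEI, against 237 and 170 in Tg-18mo, and was called in no comparison. Cox8c, a testis form, was not called in any comparison at 1455167_at. Cox4i2, the form of subunit 4 known from lung and hypoxic cells, had a highest group mean of 48.6 and was not tested, as was Cox7b2 at 45.9. Ndufa4l2, a hypoxia-induced relative of Ndufa4, had 147 and 173 in Tg-18mo-ACEI, 178 and 223 in Tg-18mo, and 99.3 and 127 in Tg-12mo. It was higher in Tg-18mo than in Tg-12mo by 0.83 on the log2 scale (adjusted p = 0.012, limma, a call lost without replicate 2 of Tg-18mo, where the difference was 0.67) and was not called with captopril (-0.32, adjusted p = 0.28). Ndufa4l2 is known to be expressed in pericytes and vascular smooth muscle. Of 12 markers of these cells, 8 rose and none fell in Tg-18mo against Tg-12mo as deposited. On the quantile scale 7 rose and 1 fell. With captopril 8 fell and none rose on either scale. Among all probe sets tested, 25.9% rose and 21.5% fell with age, and 15.9% rose and 17.7% fell with captopril, as deposited. The summed signal of the 12 markers was 9556 to 9733 in Tg-18mo-ACEI, 13056 to 13251 in Tg-18mo and 9183 to 9514 in Tg-12mo. The part of these cells in the Ndufa4l2 result was not tested.

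The largest rise with captopril was at the assembly factor Ndufaf4. At 1427997_at it had 1995 and 1921 in Tg-18mo-ACEI, 1004 and 988 in Tg-18mo, and 1480 and 1385 in Tg-12mo. The treated chips were highest and the untreated chips of the same age lowest, with no overlap of the 3 groups. The log2 difference was 0.97 ± 0.06 (SE) with captopril (adjusted p = 1.4e-05, limma) and -0.52 in Tg-18mo against Tg-12mo (adjusted p = 2e-04). The second Ndufaf4 probe set did not follow it. At 1435333_at the signal was 1157 and 1244 in Tg-18mo-ACEI, 1349 and 1244 in Tg-18mo, and 975 and 1024 in Tg-12mo, with -0.11 for captopril (adjusted p = 0.26) and a rise of 0.37 with age (adjusted p = 0.0028). Both probe sets are without a suffix, and they gave opposite calls between the ages, so no direction can be given for the gene.

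Ndufaf8, an assembly factor that acts with Ndufaf5, fell with captopril at both of its probe sets. It had 1860.1 and 1859.5 in Tg-18mo-ACEI, 2486.5 and 2348 in Tg-18mo, and 3096 and 3180 in Tg-12mo at 1457826_a_at, with a log2 difference of -0.38 for captopril (adjusted p = 0.00098, limma) and -0.38 with age. At the dim probe set 1448003_at the captopril difference was -0.59 (adjusted p = 0.016), a call that was lost without replicate 2 of Tg-18mo-ACEI (-0.41) and without either Tg-18mo chip (-0.57 and -0.61). Ndufaf3, which works with Ndufaf4 in early assembly, fell by 0.18 on the log2 scale with captopril, a call lost when any of the chips of these 2 groups was left out (-0.18 to -0.19). Ndufaf1, a chaperone of the membrane arm, had 1346 and 1305.0 in Tg-18mo-ACEI, 1153 and 1063 in Tg-18mo, and 891 and 792 in Tg-12mo. It was higher by 0.26 with captopril (adjusted p = 0.034, lost when any of the chips of these 2 groups was left out, at 0.20 to 0.32), by 0.40 with age and by 0.66 in Tg-18mo-ACEI against Tg-12mo, on both scales.

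Sdhc, one of the membrane anchors of complex II, had 2651 and 2459 in Tg-18mo-ACEI, 3663 and 3639 in Tg-18mo, and 2783 and 2752 in Tg-12mo at 1448630_a_at. The untreated old mice were the high group, and the other 2 groups lay close together. It fell by 0.52 ± 0.05 (SE) with captopril on the log2 scale (adjusted p = 0.00021, limma), rose by 0.40 with age (adjusted p = 0.00041), and was not called in Tg-18mo-ACEI against Tg-12mo (-0.12, adjusted p = 0.11). These comparisons share the Tg-18mo chips. The second Sdhc probe set, 1435986_x_at, varied too widely between the Tg-18mo chips (798 and 1540) to be called. The catalytic subunits were steadier: Sdha, which holds the flavin, differed by -0.13 and -0.05 with captopril at its 2 probe sets and Sdhb, which holds the iron-sulphur clusters, by -0.05, and none of these was called.

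In complex I several accessory subunits fell with captopril at one probe set and moved less at others of the same gene. Ndufb7 had 3437 and 3219 in Tg-18mo-ACEI, against 4343 and 4376 in Tg-18mo, at 1448331_at (log2 difference -0.39, adjusted p = 0.001, limma), and -0.19 at 1416417_a_at (adjusted p = 0.085). Ndufc2 had 7554 and 7423 in Tg-18mo-ACEI, against 9728 and 9628 in Tg-18mo, at 1416366_at (-0.37, adjusted p = 0.00037), with -0.15 (adjusted p = 0.039) and -0.07 (adjusted p = 0.36) at its other probe sets. Ndufa12 had 6669 and 6641 in Tg-18mo-ACEI, against 8535 and 8515 in Tg-18mo, at 1418814_s_at (-0.36, adjusted p = 0.00074), and 0.01 at each of its 2 other probe sets. All 3 are accessory subunits that surround the core. In each the chips of these 2 groups did not overlap at the probe set named first. The 3 were chosen for their difference, by the naming rule or after their values were seen, so this is no support for it. Ndufa7, an accessory subunit of the matrix arm, fell at 4 of its 5 probe sets, with log2 differences of -0.17 to -0.38. Of these calls, that at 1422976_x_at was lost without replicate 2 of either group (-0.20 and -0.22), and that at 1428360_x_at without replicate 2 of Tg-18mo-ACEI (-0.14) or either Tg-18mo chip (-0.20 and -0.15).

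Some rises with captopril were not shared by every probe set of the gene, and in Ndufab1 another probe set fell. Ndufab1, the mitochondrial acyl carrier protein, rose at the dim probe set 1428160_at, with 588 and 600.3 in Tg-18mo-ACEI, 389 and 455 in Tg-18mo, and 992 and 1108 in Tg-12mo (log2 difference 0.50, adjusted p = 0.0061, limma). It fell at the bright 1428159_s_at by 0.14 (adjusted p = 0.032), a call that did not survive leaving out any chip of either group (-0.13 to -0.15). Uqcr10, a small subunit of complex III, had 909 and 907 in Tg-18mo-ACEI, 656 and 649.5 in Tg-18mo, and 1255 and 1180 in Tg-12mo at 1434340_at, and rose by 0.48 (adjusted p = 0.0011). It also rose at 1434341_x_at (0.27, lost without either Tg-18mo chip at 0.27 and without replicate 1 of Tg-18mo-ACEI at 0.20) and was not called at 1424364_a_at (-0.10). Sdhd, the other anchor of complex II, rose by 0.43 at the dim 1437489_x_at (lost without either Tg-18mo chip, at 0.39 and 0.46, and without replicate 2 of Tg-18mo-ACEI, at 0.30) and differed by -0.02 at 1428235_at.

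**Figure D4:**
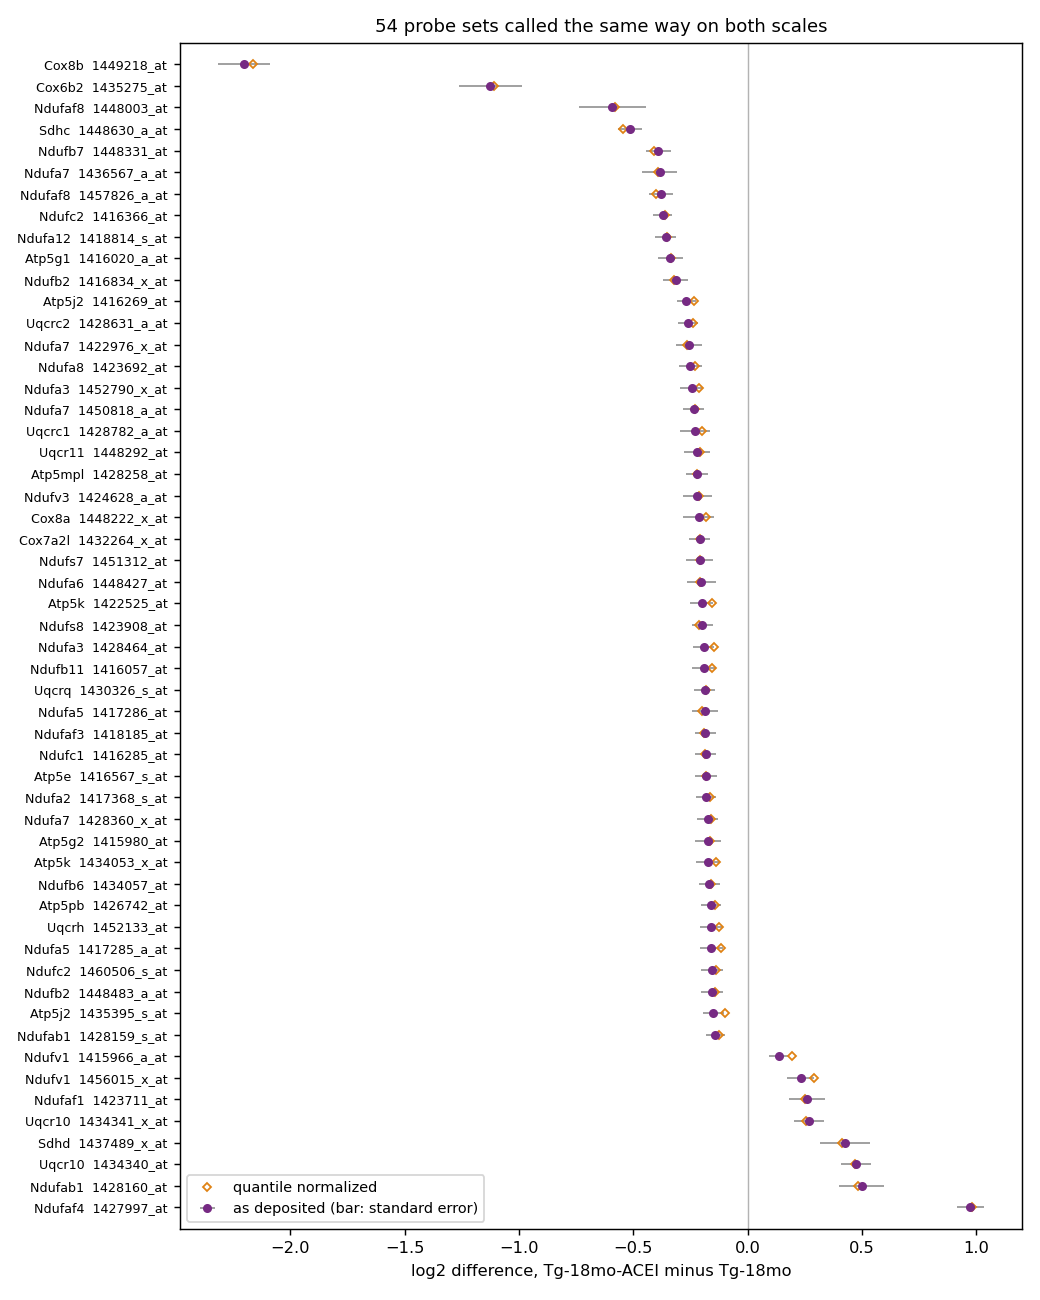
Log2 difference of Tg-18mo-ACEI minus Tg-18mo for the 54 member probe sets called in the same direction on both scales, as deposited (filled, with standard errors) and after quantile normalization (open). From top to bottom the values run from -2.20 at Cox8b to 0.97 at Ndufaf4, and the 46 lower ones end at -0.14.

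In complex V the captopril falls included membrane-ring and stalk subunits. Atp5g1, 1 of 3 genes for the ring subunit c, had 6384 and 5851 in Tg-18mo-ACEI, 7556 and 7903 in Tg-18mo, and 6763 and 6997 in Tg-12mo at 1416020_a_at. It fell by 0.34 on the log2 scale (adjusted p = 0.0024, limma). Atp5g2 fell by 0.17 (adjusted p = 0.041), a call lost without replicate 2 of Tg-18mo (-0.11), either Tg-18mo-ACEI chip (-0.15 and -0.20) or either Tg-12mo chip (-0.17). Atp5g3 was not called (-0.13, adjusted p = 0.12). The head subunits did not move past the test: Atp5a1 differed by -0.07 and -0.09 at its bright probe sets and Atp5b by -0.11. The dim Atp5a1 probe set 1420037_at differed by 0.41 and was not called. Nor was Atp5c1, a subunit of the central stalk, at 0.01. Of complex IV, the subunits Cox4i1, Cox5a and Cox5b were not called at any of their 8 probe sets tested. Cox4i1 had 16782 and 15691 in Tg-18mo-ACEI, against 17504 and 18379 in Tg-18mo (-0.14, adjusted p = 0.059). Cyc1 (cytochrome c1 of complex III) and Cycs (cytochrome c) were not called on the deposited scale either, with 0.08 for Cyc1 and -0.05 to 0.11 for the 4 probe sets of Cycs. On the quantile scale Cyc1 rose by 0.15 (adjusted p = 0.016).

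The change over 6 months of age was read from Tg-18mo against Tg-12mo, both untreated. As deposited, 109 members fell in Tg-18mo and 12 rose (69% and 7.59% of the members), where 21.5% of all probe sets tested fell and 25.9% rose. The median log2 difference of the members was -0.28, beside 0.05 for all probe sets tested. After quantile normalization 44 members fell and 30 rose, against backgrounds of 22% and 21.9%, and the medians were -0.03 and 0.01. The share of members that fell was then 27.8%, near the background. Of the 109 lower calls, 43 were lower on both scales, 58 were not called after quantile normalization and 8 became higher. The same was not counted over all probe sets tested.

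From a mean signal of 1000 upwards the deposited difference went with signal, in the members and over all probe sets tested. At a mean signal of 10000 or more, 100% of 58 members were lower in Tg-18mo with a median of -0.49, and so were 92.6% of all 633 probe sets of that band, also with a median of -0.49. From 5000 to 10000 the medians were -0.21 for the members and -0.17 for all. From 1000 to 5000 they were 0.10 and 0.04. Below 1000 the members departed from this order, with a median of 0.03 beside 0.09, and 30.8% of 26 were lower, beside 13.6% of 14885 probe sets (34.6% beside 17.5% on the quantile scale). After quantile normalization the medians of the members in these 4 bands, from the brightest down, were -0.04, -0.01, 0.08 and -0.05. Complex IV had 22 of 27 probe sets lower as deposited (median -0.47) and 11 lower and 2 higher on the quantile scale (median -0.11). Complex V had 24 of 28 lower (median -0.37), and 5 lower and 7 higher on the quantile scale (median -0.01). In complex I as assigned by symbol, 44 of 68 were lower and 6 higher as deposited, against 18 lower and 12 higher on the quantile scale. As deposited, Ndufa4 was among the lower and Ndufa4l2 among the higher.

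Single subunits show the size of this shift. Cox4i1 had 17504 and 18379 in Tg-18mo, against 29618 and 29041 in Tg-12mo, a log2 difference of -0.71 as deposited (adjusted p = 2.5e-05, limma) and -0.02 on the quantile scale. Atp5b, the catalytic subunit of the ATP synthase, had 14390 and 14935 in Tg-18mo, against 21049 and 20889 in Tg-12mo, with -0.52 as deposited and 0.04 on the quantile scale. Uqcrb, a subunit of complex III at the quinone pocket, had 19195 and 20558 in Tg-18mo, against 28587 and 29818 in Tg-12mo, at 1455997_a_at, with -0.56 as deposited and a call in the other direction, 0.13, after quantile normalization. The chips of the 2 ages did not overlap in any of the 3 as deposited. With 2 chips in a group this is a description only, and the share of all probe sets without overlap is not given.

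Other members were lower at 18 months on both scales. Cyc1, the cytochrome of complex III, had 9309 and 9858 in Tg-18mo, against 16419 and 16579 in Tg-12mo (log2 difference -0.78, adjusted p = 2.1e-05, limma), and -0.38 on the quantile scale. Ndufb6, an accessory subunit of the membrane arm whose upstream sequence is shown above, had 7014 and 6746 in Tg-18mo, against 13112 and 12090.0 in Tg-12mo, at 1434056_a_at (-0.87, adjusted p = 1.4e-05, and -0.58 on the quantile scale). Its second probe set, 1434057_at, differed by -0.16 and by -0.04 on the quantile scale, where it was not called. Cox5b was lower at all 4 of its probe sets tested, with log2 differences of -0.47 to -0.82, and -0.14 to -0.30 on the quantile scale. Ndufs7 differed by -0.66 at 1424313_a_at (-0.41 on the quantile scale) and by -0.23 at 1451312_at (-0.07 on the quantile scale, not called). Uqcr10 differed by -0.90, -0.74 and -0.46 at its 3 probe sets.

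The largest falls with age among the remaining members were at dim probe sets of genes whose bright probe sets moved less. Ndufab1 at 1428160_at had 389 and 455 in Tg-18mo, against 992 and 1108 in Tg-12mo (log2 difference -1.32, adjusted p = 3e-05, limma), and -0.23 at 1428159_s_at. Atp5a1 at 1420037_at had 231 and 292 in Tg-18mo, against 531 and 692 in Tg-12mo (-1.22, adjusted p = 0.00047), beside -0.65 and -0.20 at its bright probe sets. These 2 probe sets and Cox8b were the 3 members that fell with age by 2-fold or more at an adjusted p under 0.05.

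A few members were higher at 18 months on both scales. Ndufv1, the NADH-binding flavoprotein of complex I, had 7917 and 8050.3 in Tg-18mo-ACEI, 7320 and 7206 in Tg-18mo, and 5205.0 and 5248 in Tg-12mo at 1415966_a_at. It rose by 0.47 ± 0.04 (SE) in Tg-18mo against Tg-12mo on the log2 scale (adjusted p = 6e-05, limma) and by 0.58 on the quantile scale. The probe set 1456015_x_at rose by 0.36, while the third, 1415967_at, was not called in this comparison (-0.10, adjusted p = 0.15). With captopril 1415966_a_at was higher by 0.14 (adjusted p = 0.037), a call lost without any single one of the 6 chips (0.12 to 0.15). Sdhc, Ndufaf1 and Ndufa4l2, described above, and Sdhd at 1428235_at (0.32) also rose. Ndufs8 at the dim probe set 1434212_at had 118 and 106 in Tg-18mo, against 63.7 and 30.1 in Tg-12mo. It passed the signal minimum only through the groups aged 18 months, and its call (adjusted p = 0.026, limma) was lost without replicate 2 of Tg-12mo and without either Tg-18mo chip, so no size is read from it, while 3 other probe sets of the gene had differences of -0.37 to -0.70.

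**Figure D5:**
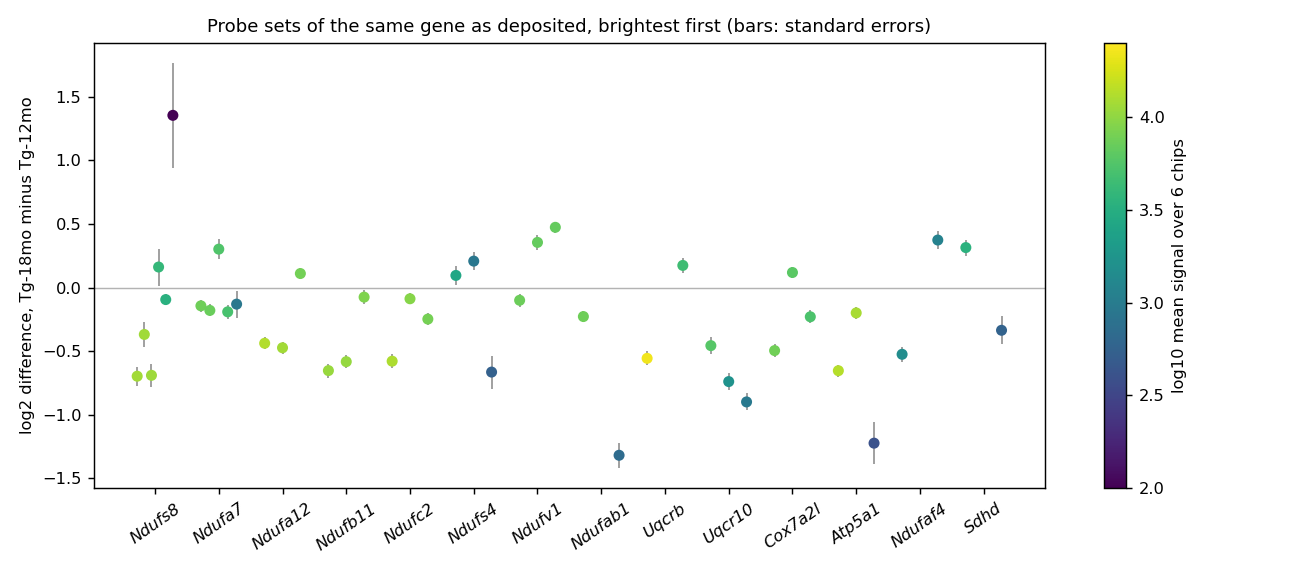
Log2 difference of Tg-18mo minus Tg-12mo as deposited for each probe set of 14 member genes, ordered from bright to dim within a gene and coloured by log10 mean signal, with standard errors. Probe sets of the same gene lie on both sides of 0 in Ndufs8, Ndufa7, Ndufs4, Uqcrb, Ndufaf4 and Sdhd, where calls in both directions were made.

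Probe sets of the same gene often disagreed. Of the 46 member genes with 2 or more probe sets tested, 20 were lower at every probe set in Tg-18mo against Tg-12mo, 3 were lower at every one with captopril, and 30 in Tg-18mo-ACEI against Tg-12mo. The median range of the log2 difference within a gene was 0.39 with age, 0.19 with captopril and 0.27 for Tg-18mo-ACEI against Tg-12mo. Calls in both directions within a gene were made for 6 genes with age (Ndufa7, Ndufaf4, Ndufs4, Ndufs8, Sdhd and Uqcrb), for 1 with captopril (Ndufab1) and for 2 in the remaining comparison (Ndufs8 and Uqcrb). With age, at least 1 of the opposing calls was lost when a chip was left out in each of these genes other than Ndufaf4. The higher calls of Ndufs8 were at the dim 1434212_at, which passed the signal minimum only through the groups aged 18 months. In Tg-18mo-ACEI against Tg-12mo that call was lost without either Tg-18mo chip, replicate 1 of Tg-18mo-ACEI or replicate 2 of Tg-12mo. So it is no sound sign of disagreement within Ndufs8. The kind of probe set went with the age difference: the 86 with a suffix of _a, _s or _x, whose probes match several transcripts or related sequences, had a median of -0.43, and the 72 plain ones -0.19. With captopril the order was the other way, at -0.07 and -0.13. Suffixed members were also brighter, with a median signal of 8979 against 6524. Many subunit genes have near-identical processed pseudogenes, so a signal at a probe set with the suffix _s or _x may not be that of its named gene alone. The medians above pool these with the suffix _a, and the kinds of suffix were not compared.

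Tg-18mo-ACEI was also set against Tg-12mo, which shares its chips with both comparisons above. As deposited 123 members fell and 10 rose, against backgrounds of 17.7% and 22.3%, with a median log2 difference of -0.41 beside 0.05 for all probe sets tested. After quantile normalization 66 members (41.8%) fell and 10 (6.33%) rose, against 18% and 18.1%, with medians of -0.11 and 0.00. Here 64 members were lower on both scales and 7 higher, and the same was not counted over all probe sets tested. In the band from 5000 to 10000 on the quantile scale, 53.6% of members were lower, beside 26.1% of all probe sets, and below 1000 it was 42.3% beside 14.1%. By complex, 34 of 68 probe sets of complex I, 7 of 14 of complex III, 11 of 27 of complex IV, 11 of 28 of complex V and 0 of 7 of complex II were lower on the quantile scale.

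Named subunits in this comparison are given for contrast. Cox6a1, the widely expressed form of subunit 6a, had 15895 and 14079 in Tg-18mo-ACEI, against 27144 and 28412 in Tg-12mo, at 1417417_a_at (log2 difference -0.89 as deposited, adjusted p = 5.8e-05, limma, and -0.17 on the quantile scale). Ndufaf8 at 1457826_a_at differed by -0.75 and by -0.79 on the quantile scale. Ndufv1 was higher by 0.61 at 1415966_a_at and by 0.59 at 1456015_x_at, and Ndufaf4 by 0.45 at 1427997_at, all on both scales.

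Lists of related mitochondrial genes were read beside the members, each gene by its brightest probe set. Among all probe sets tested, 15.9% rose and 17.7% fell with captopril. With age 25.9% rose and 21.5% fell as deposited, and 21.9% rose and 22% fell on the quantile scale. Of 16 genes of the TCA cycle and pyruvate dehydrogenase, which feed electrons to complexes I and II, 1 rose and 4 fell with captopril (median log2 difference -0.07). With age 2 rose and 8 fell as deposited, and 3 rose and 4 fell on the quantile scale. Of 35 assembly factors outside the symbols of the rule, 7 rose and 4 fell with captopril, and 4 rose and 12 fell with age (5 and 12 on the quantile scale). Of 13 genes of mitochondrial transport and energy transfer (carriers, channels, the creatine kinases Ckb and Ckmt1, the adenylate kinase Ak3 and the ATP synthase inhibitor Atpif1), 1 rose and 1 fell with captopril, and none rose and 10 fell with age (2 and 5 on the quantile scale).

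Of 16 regulators of mitochondrial genes, 3 rose and 1 fell with captopril, where 15.9% of all probe sets tested rose and 17.7% fell. The rises are thus no more than a description of single genes. Tfb2m, a factor that starts transcription of mitochondrial DNA, had 1606 and 1873 in Tg-18mo-ACEI, against 1169 and 1142 in Tg-18mo (log2 difference 0.59, limma). Gabpa, the ETS factor named above, had 760.3 and 836 in Tg-18mo-ACEI, against 641 and 627 in Tg-18mo (0.33), and Yy1 was higher by 0.23. Sp1 was the one that fell, by 0.56. Ppargc1a, a coactivator of mitochondrial biogenesis, was not called at 0.10, nor was Tfam, which packages mitochondrial DNA, at 0.08.

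Markers of cell types were read beside the members. With captopril 4 of 10 neuronal markers fell and none rose as deposited (median -0.12), and 4 fell and 1 rose on the quantile scale (median -0.05). Among all probe sets tested, 17.7% fell and 15.9% rose as deposited. The summed signal of the 10 was 94698 to 97375 in Tg-18mo-ACEI, 100210 to 103310 in Tg-18mo and 123530 to 123840 in Tg-12mo. With age 6 of the 10 fell and 4 rose as deposited, and 1 fell and 6 rose on the quantile scale. Among all probe sets tested, 21.5% fell and 25.9% rose with age as deposited, and 22% and 21.9% on the quantile scale. Markers of hippocampal principal neurons did not move one way: with captopril 2 of 8 rose and 2 fell (median 0.02), with a summed signal of 21287 to 22691 in Tg-18mo-ACEI, 20600 to 21323 in Tg-18mo and 20479 to 20801 in Tg-12mo. With age 3 of the 8 rose and 2 fell. Of 6 oligodendrocyte markers 3 fell with captopril and none rose (median -0.23, summed signal 51309 to 53616 in Tg-18mo-ACEI, 58285 to 60050 in Tg-18mo and 79512 to 79599 in Tg-12mo). With age 4 of the 6 fell and 2 rose as deposited, and none fell and 2 rose on the quantile scale. Of 7 astrocyte markers 3 rose and 2 fell with captopril, and 2 rose and 4 fell with age (3 and 3 on the quantile scale). Of 7 microglial markers 2 rose and 2 fell with captopril, and 3 rose and 2 fell with age (2 and 2 on the quantile scale). The part of cell composition in the member results was not tested.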

How the data were processed

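RNA was hybridised to Affymetrix MG430 2.0 chips. The authors deposited linear signal intensities, made with GCOS per the submitters' processing notes and scaled on each chip to a common trimmed mean. The deposited intensities were converted to log2 without an offset, and 23262 probe sets with a mean of at least 100 in 1 group were kept after 64 control probe sets were left out. Group means were compared with limma 3.58.1 (R 4.3.3), with a variance prior that follows signal (3 residual and 5.37 prior degrees of freedom) and Benjamini-Hochberg adjustment over all 23262. Quantile normalization, median scaling, other filters and variance priors, the methods' t-test, a replicate block, 1 probe set per gene and leaving out each chip were the alternatives. The code was tested on simulated data.

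Members and lists were chosen with earlier results of these data known. Named probe sets are the highest in signal of each complex, the 5 largest differences in each direction per comparison (adjusted p under 0.05, chips not overlapping) and the 5 largest called on both scales. Isoform families, genes with opposite calls and a list of core genes are also named. That list holds Cox4i1, Cox5a and Cox5b, which are not catalytic. Ndufc2, Ndufa12 and some other members and probe sets were named after their values were seen. Probe sets with several symbols, 10 of them here, were left out. Upstream sequences come from RefSeq (GRCm38.p6), and motifs were counted with Python 3.11.15.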

Additional observations from a re-analysis of the deposited data

How the results depend on the processing

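Under quantile normalization the median member log2 difference was -0.073 for Tg-18mo-ACEI minus Tg-18mo (as deposited -0.11), -0.029 for Tg-18mo minus Tg-12mo (-0.28) and -0.11 for Tg-18mo-ACEI minus Tg-12mo (-0.41), while the higher calls with age became 30 and the lower calls 44, and the lower calls of the last comparison 66. With captopril the higher calls (8) became 3 without a signal trend in the variance prior, 1 by the methods' t-test after adjustment and 2 with 1 probe set per gene, and 3 to 8 when a chip was left out. The lower calls (47) became 24 after median scaling, 14 without the trend, 1 by the t-test and 23 with 1 probe set per gene, and 15 to 41 when a chip was left out, with medians of -0.147 to -0.066. With age the higher calls (12) became 2 by the t-test, 5 with 1 probe set per gene and 7 to 12 without a chip (7 without replicate 2 of Tg-12mo), and the lower calls (109) 12 by the t-test and 67 with 1 probe set per gene. In Tg-18mo-ACEI minus Tg-12mo these were 0 and 4 higher and 4 and 72 lower (t-test first). The median with age was -0.32 with a mean signal of at least 200 and -0.36 with 1 probe set per gene, where fewer probe sets are tested. Plain and suffixed probe sets, an alternative chosen after seeing the data, gave medians of -0.19 and -0.43 with age, -0.33 and -0.51 for Tg-18mo-ACEI minus Tg-12mo, and -0.13 and -0.074 with captopril. The cause of these shifts was not tested.

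Quantile normalization turned the sign of 20 of the 158 members in Tg-18mo-ACEI minus Tg-18mo, none of them called on either scale, of 37 in Tg-18mo minus Tg-12mo and of 26 in Tg-18mo-ACEI minus Tg-12mo. With age 8 were called lower as deposited and higher afterwards, at Atp5h 1423676_at (0.10), Atp5j 1416143_at (0.13), Atp5j2 1416269_at (0.20), Atp5l 1448203_at (0.14), Cox6c 1415970_at (0.145), Ndufa3 1452790_x_at (0.17), Atp5a1 1423111_at and Uqcrb 1455997_a_at. Among the probe sets chosen by the naming rule and called on 1 scale or both, those turned in Tg-18mo minus Tg-12mo were Cox8a 1416112_at (0.072) and 1448222_x_at (0.10), Atp5b 1416829_at (0.044), Cycs 1422483_a_at (0.0036), Atp5a1 1423111_at (0.17), Ndufa4 1424085_at (0.10), Sdha 1426688_at (0.11) and 1426689_s_at (0.063), Cox6b1 1436757_a_at (0.072), Cox5a 1448153_at (0.0053), Ndufa7 1450818_a_at (0.055), Atp5g3 1454661_at (0.029) and Uqcrb 1455997_a_at (0.13). In Tg-18mo-ACEI minus Tg-12mo they were Ndufv1 1415967_at (0.14), Atp5b 1416829_at (0.0098), Cycs 1422483_a_at (0.085), 1422484_at (0.016) and 1456071_a_at (0.13), Atp5a1 1423111_at (0.14), Ndufa4 1424085_at (0.0598), Sdha 1426688_at (0.0079) and 1426689_s_at (0.039), Atp5pb 1433562_s_at (0.042), Cox6b1 1436757_a_at (0.016) and Uqcrb 1455997_a_at (0.0898). The cause was not tested.

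Replicate numbers are shared by the groups, but same-numbered chips did not deviate together (r of -0.03, -0.05 and 0.03). With the number as a replicate block, higher and lower calls of member probe sets were 8 and 36 with captopril, 11 and 103 with age, and 9 and 120 in Tg-18mo-ACEI minus Tg-12mo.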

Other observations

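Probe sets with several symbols were not counted as members. Those shared by Ndufb4 and its near-copies Ndufb4b and Ndufb4c differed by 0.03 at 1428075_at and -0.01 at 1428076_s_at in Tg-18mo-ACEI minus Tg-18mo, and by -0.53 and -0.31 in Tg-18mo minus Tg-12mo. The probe set of Ndufs5 and its pseudogene Ndufs5-ps, 1416495_s_at, differed by -0.12 with captopril and -0.26 with age. Both probe sets of Cox7c, a subunit of complex IV, stayed below 100, with highest group means of 23.7 and 68.0, so that gene was not measured here.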
